A study of Saccharomyces cerevisiae with 8 samples.

Results

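Both dihydropyrimidine-thiones (DHPM-thiones) of this yeast RNA-seq series were set together against their solvent. All 4 thione libraries, 2 from cultures given 10{3,3,1} and 2 from cultures given 11, were taken as one side, and the 2 DMSO libraries as the other. These are 6 of the 8 libraries of the series, and the remaining 2 come from cultures given clioquinol (CQ). Per the labels, every culture was a W303 strain of Saccharomyces cerevisiae that lacks PDR1 and PDR3, which encode related activators of drug-pump genes, so the DMSO cultures carry these deletions too. Cells in log phase in galactose medium received 20 µM 10{3,3,1}, 20 µM 11, 0.8 µM CQ or DMSO for about 6 h. The labels call 10{3,3,1} the active and 11 the inactive compound and do not say how the 2 structures differ. The growth protocol gives millimolar doses and wild-type yeast, whereas the sample characteristics, followed here, give micromolar doses and the deletion strain.

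Read counts per library ran from 12076141 to 19021672, and 6046 to 6136 features were detected in each. PDR1 and PDR3 had 0 counts in all 8 libraries, where 3 counts would be 0.158 to 0.248 CPM (read counts adjusted for library size). Replicates are labelled as biological, and P-values measure the spread between these libraries. On the first principal component of the 6 thione and DMSO libraries, which held 52.9% of the variance, the 10{3,3,1} libraries lay at -2.17 and 15.2, the 11 libraries at 2.00 and 19.4 and the DMSO libraries at -23.1 and -11.3. The thione and DMSO libraries did not overlap there, but the 2 libraries of each group lay apart. In each group replicate 2, given second, lay higher than replicate 1. Position on this component thus went with replicate number as well as with treatment. CPM values are shares of a library's RNA, so fewer cells of a kind and less RNA per cell cannot be told apart.

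Several yeast circuits are background to the genes named below. When phosphate is short, the factor Pho4 enters the nucleus and switches on phosphatases that free phosphate outside the cell and transporters that bring it in. Calcium signals act through the phosphatase calcineurin, whose target Crz1 raises ion pumps and cell wall enzymes, and damage to the wall acts through the kinase Slt2 and the factor Rlm1. Drug pumps of the plasma membrane are mostly under Pdr1 and Pdr3, both absent from this strain.

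With both thiones on one side, 53 of 5696 tested features changed against DMSO in edgeR's quasi-likelihood test at an adjusted p of 0.05, which is 0.930% of those tested. Of these, 45 rose (0.790%) and 8 fell (0.140%), and 25 rose and 4 fell by at least 2-fold. The median log2 fold change over all tested features was 0.03. At an unadjusted p under 0.05 there were 993 features, 17.4% of those tested, 11.8% higher and 5.60% lower. DESeq2 called 162 higher (2.84%) and 50 lower (0.878%). In 51 of the 53, all 4 thione libraries lay beyond both DMSO libraries on the side of the change. Over all tested features such a gap was found above DMSO in 19.9% and below it in 15.5%.

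Few of these calls held without 1 of the 6 libraries, and 30 of the 53 were lost whichever of them was left out. AZR1, PHO89, PHO5 and GIT1 were the only ones of the 53 still called when any 1 thione or DMSO library was left out. Without DMSO replicate 1, 4 of the 53 calls remained, and the adjusted p of the 49 lost ran from 0.0948 to 0.884. Without DMSO replicate 2, 6 remained, with 0.0754 to 0.377 for those lost. Leaving out 10{3,3,1} replicate 1 or 2 kept 23 and 11 of the calls, and leaving out 11 replicate 1 or 2 kept 15 and 12. The adjusted p of calls lost in those 4 fits ran from 0.0560 to 0.174. With the 4 thione libraries fitted as 1 group, so that the difference between the compounds counts as spread, 20 of the 53 were lost, among them PHO89 (adjusted p = 0.0935), PHO5 (0.116), PHM6 (0.0523), PHO12 (0.124), DAN1 (0.128), TIR1 (0.116), TPO4 (0.0773), CTR1 (0.246), YOR1 (0.209), IZH4 (0.116) and ARO10 (0.0830).

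**Figure D1:**
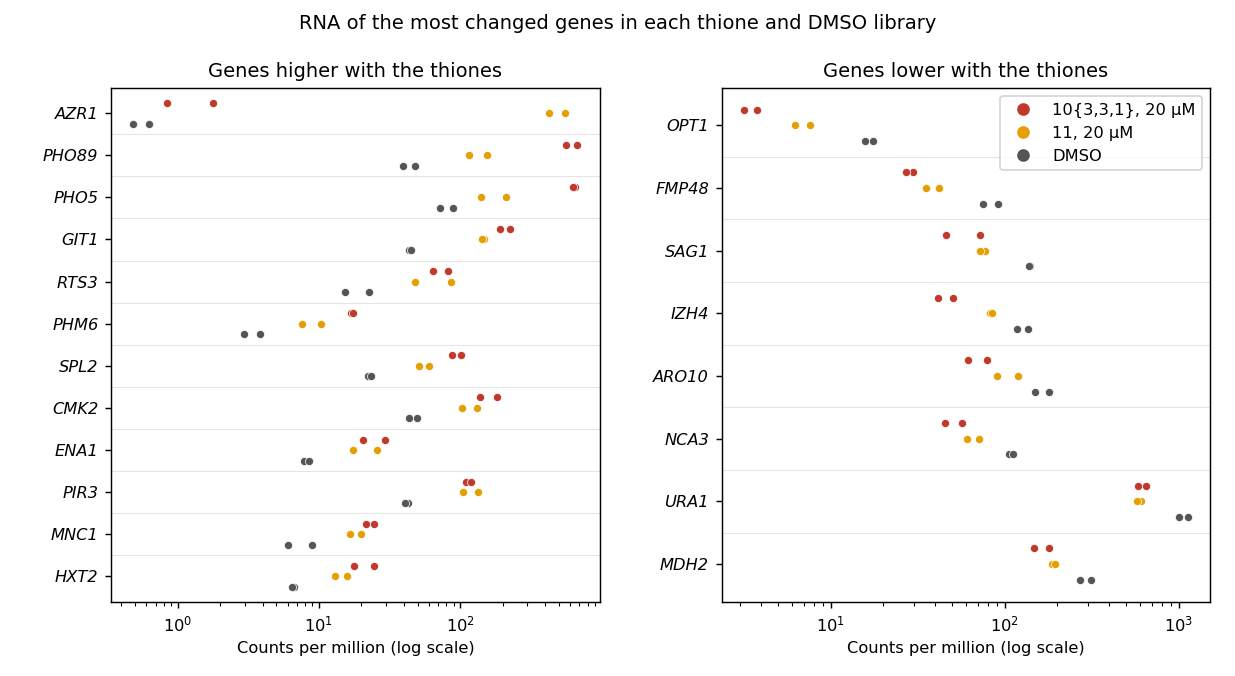
RNA level (CPM, log scale) of the 12 genes with the largest rise and the 8 that fell with the thiones, chosen by the naming rule given with the processing. Each point is 1 library, and all 4 thione points of every gene shown lie on one side of both DMSO points, by the rule for choosing them. The 11 libraries of AZR1 reach 428 and 552 CPM, against 0.838 and 1.79 CPM with 10{3,3,1}.

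Genes of phosphate starvation were among those that rose with the thiones. The gene lists here and below were chosen with earlier results of these data known. A share of called members above that of all features is therefore no independent support. Of the 17 phosphate-regulon genes on the list, all tested, 7 rose in edgeR's test, where 0.790% of all features did, and 0 fell. By DESeq2 9 rose (2.84% of all features) and 0 fell, and at an unadjusted p under 0.05 edgeR gave 11 higher (11.8% of all) and 0 lower. Their median log2 fold change was 0.77 beside 0.03 over all features. Against DMSO with 10{3,3,1} alone, each of the 7 passed in edgeR's test (highest adjusted p = 0.0178). With 11 alone, PHO89, GIT1 and SPL2 passed (adjusted p 0.0127, 0.00240 and 0.0347). PHO5, PHO8, PHM6 and PHO12 did not pass with 11 alone (0.0830, 0.176, 0.279 and 0.359). The median of the list was 0.89 with 10{3,3,1} and 0.59 with 11. Between 3 and 8 of its members passed when single libraries were left out, and 4 passed when the 4 thione libraries were fitted as 1 group.

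The DNA word CACGTG, the core of the Pho4 site, was looked for on both strands of the reference genome (RefSeq R64, the build sacCer3, of strain S288C and not W303). In the 500 bases before the start codon it was found in 5 of the 7 phosphate genes that rose and in 6.35% of 5525 genes tested. These genes were listed as Pho4 targets, so finding the word there is no independent support. Outside the list it also lay before the risers AZR1, ATG41, GDE1 and TDA1 and the faller IZH4. Words of other factors were searched as well, and of these only the word of Crz1 is given below with its share. In the narrower window of 250 bases before to 50 after that start it was found in 1 of the 7, SPL2, and in 3.02% of all genes, and the wider window was chosen after seeing this. GIT1 and PHO8 had no such letters in either window, which says nothing about the factor. A 30-base stretch around the word is shown for each of the 5 genes to let the flanks be compared, with CACGTG in capitals, read 5′ to 3′ on the gene's own strand. SPL2 had 4 such words, of which the 1 followed by gg on the gene's own strand was chosen. Of the other 3, 1 is followed by gg on the opposite strand, and a different 1 overlaps the word TTTGCTC of the copper factor Mac1.
PHO89, minus strand, chrII:798828-798857: atgacaatgcagCACGTGggagacaaatag
PHO5, minus strand, chrII:431187-431216: ccttggcactcaCACGTGggactagcacag
PHO12, plus strand, chrVIII:551804-551833: tcttggcgttcaCACGTGggtttaaaaagg
PHM6, minus strand, chrIV:1022583-1022612: gagcttcgctgaCACGTGggaggtgggata
SPL2, minus strand, chrVIII:375230-375259: aaatgatgtacgCACGTGggcgaaagttca
In the stretches of PHO89, PHO5, PHO12 and PHM6, each with 1 word in the window, it is also followed by gg on the gene's own strand. CACGTG reads the same on both strands, so this flank depends on the strand read, and the SPL2 word was chosen to match.

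Among the transporters, PHO89 (YBR296C, chrII:796798-798522) encodes the sodium-coupled phosphate importer of the plasma membrane. It stood at 678 and 566 CPM with 10{3,3,1}, 154 and 115 CPM with 11, and 47.6 and 39.7 CPM in DMSO. The 3 groups did not overlap, and the log2 fold change of both thiones over DMSO was 2.73 (SE 0.18, edgeR adjusted p = 0.000190). GIT1 (YCR098C, chrIII:297049-298605), which imports glycerophosphoinositol, had 191 and 224 CPM with 10{3,3,1}, 149 and 144 CPM with 11, and 43.8 and 45.1 CPM in DMSO. All 4 thione libraries stood above 3 times the DMSO level, and GIT1 rose by 1.97 (SE 0.14, edgeR adjusted p = 0.000238). For GIT1 the compounds differed by 0.50 on the log2 scale (95% interval 0.17 to 0.84, adjusted p = 0.801). PHO84, the main high-affinity importer, had 4088 and 3476 CPM with 10{3,3,1}, 3281 and 2712 CPM with 11, and 2017 and 2143 CPM in DMSO. Its libraries did not overlap either, but its log2 fold change of 0.69 did not pass (edgeR adjusted p = 0.133). PHO90, a low-affinity importer, had a log2 fold change of -0.17 (edgeR adjusted p = 0.586).

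Of the phosphatases, PHO5 (YBR093C, chrII:429548-430951) encodes the main secreted acid phosphatase. Its level was 649 and 632 CPM with 10{3,3,1}, 212 and 142 CPM with 11, and 89.1 and 71.8 CPM in DMSO. Again the 3 groups were apart, and the log2 fold change of both thiones over DMSO was 2.06 (SE 0.19, edgeR adjusted p = 0.00148). PHO12 (YHR215W), a near copy of PHO5, had 12.1 and 13.8 CPM with 10{3,3,1}, 6.73 and 4.70 CPM with 11, and 3.56 and 1.95 CPM in DMSO. It rose by 1.61 (SE 0.30, edgeR adjusted p = 0.0452), and reads of PHO5, PHO11 and PHO12 may have been shared in counting. PHO8 (YDR481C), the alkaline phosphatase of the vacuole, had 180 and 173 CPM with 10{3,3,1}, 145 and 151 CPM with 11, and 95.5 and 94.5 CPM in DMSO. PHO8 rose by 0.77 (SE 0.12, edgeR adjusted p = 0.0299), and its difference between the compounds was 0.25 (95% interval -0.06 to 0.55). The calls of PHO12 and PHO8 were lost with any 1 of the 6 libraries left out, at adjusted p from 0.0737 to 0.429.

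SPL2 (YHR136C) encodes a regulator that turns down low-affinity phosphate uptake. It had 88.0 and 101 CPM with 10{3,3,1}, 60.3 and 50.9 CPM with 11, and 22.5 and 23.5 CPM in DMSO. The thione libraries all lay above DMSO, and SPL2 rose by 1.66 (SE 0.16, edgeR adjusted p = 0.00255, and 0.0948 without DMSO replicate 1). PHM6 (YDR281C), a phosphate-responsive gene of unknown function, had 16.8 and 17.6 CPM with 10{3,3,1}, 7.59 and 10.3 CPM with 11, and 2.97 and 3.83 CPM in DMSO. It rose by 1.88 (SE 0.34, edgeR adjusted p = 0.0384), and its adjusted p was 0.0770 to 0.579 with any 1 of the 6 libraries left out. VTC1, of the complex that makes polyphosphate, had 184 and 238 CPM with 10{3,3,1}, 198 and 181 CPM with 11, and 83.2 and 112 CPM in DMSO. Its log2 fold change of 1.03 did not pass (edgeR adjusted p = 0.0747), nor did those of its partners VTC2, VTC3 and VTC4, at 0.21, 0.32 and 0.32.

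**Figure D2:**
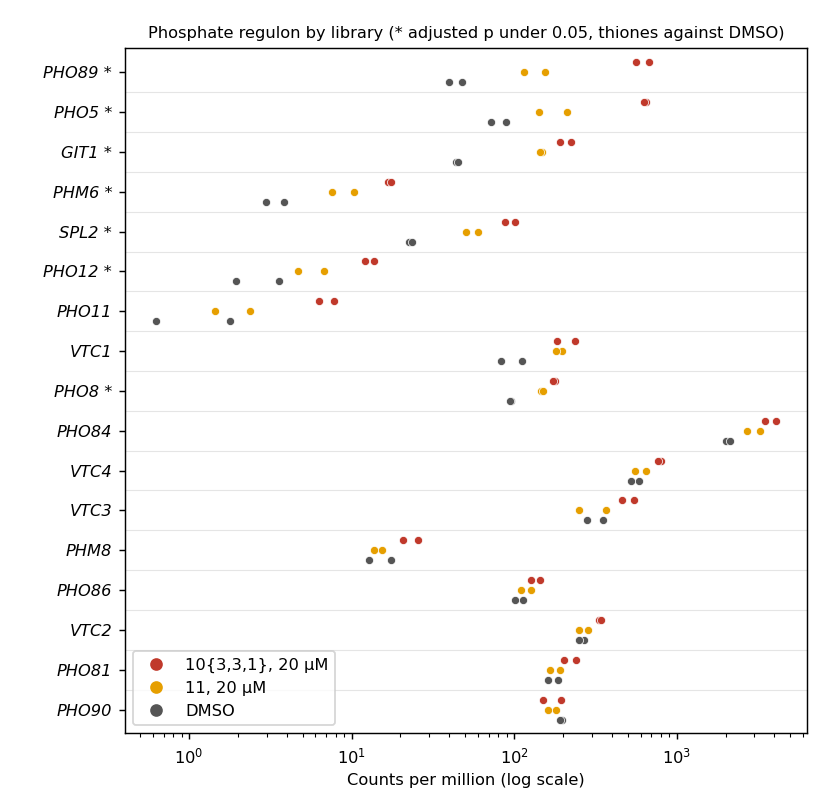
RNA level (CPM, log scale) of the 17 phosphate-regulon genes in each thione and DMSO library, in the order of the log2 fold change of both thiones over DMSO. Stars mark the 7 that rose, and PHO89 has 678 and 566 CPM with 10{3,3,1}, against 47.6 and 39.7 CPM in DMSO.

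Some targets of calcineurin and of the cell wall pathway also rose. Of 14 Crz1 targets 3 rose, PHO89 among them, and 0 fell in edgeR's test, where 0.790% of all features rose. The median log2 fold change of the list was 0.47 beside 0.03 over all features. DESeq2 called 4 higher (2.84% of all features) and 0 lower, and at an unadjusted p under 0.05 edgeR gave 8 (11.8% of all) and 0. The short word GAGGC, the core of the Crz1 site, lay on either strand within 250 bases before to 50 after the start codon of CMK2 and ENA1 and not of PHO89, and of 23.3% of all tested genes. These genes were listed as Crz1 targets, so the word there is no independent support. CMK2 (YOL016C, chrXV:294777-296120), a kinase driven by calmodulin, had 138 and 181 CPM with 10{3,3,1}, 103 and 132 CPM with 11, and 49.4 and 43.2 CPM in DMSO. The thione libraries were all at least 2 times the DMSO libraries, and CMK2 rose by 1.57 (SE 0.20, edgeR adjusted p = 0.00857). ENA1 (YDR040C), a sodium-exporting pump with near-identical neighbouring copies, had 20.7 and 29.5 CPM with 10{3,3,1}, 17.5 and 25.7 CPM with 11, and 7.83 and 8.52 CPM in DMSO. ENA1 rose by 1.51 (SE 0.29, edgeR adjusted p = 0.0491, and 0.0520 with DESeq2 size factors). The compounds differed by 0.44 for CMK2 (95% interval -0.02 to 0.91) and by 0.22 for ENA1 (-0.46 to 0.90). CMK2 was lost without either DMSO replicate (adjusted p 0.146 in both), and ENA1 with any 1 of the 6 libraries left out (0.0752 to 0.579).

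Of 16 Rlm1 targets of the cell wall pathway, 2 rose (0.790% of all features) and 0 fell in edgeR's test, and the list had a median log2 fold change of 0.56. DESeq2 called 7 higher and 1 lower (2.84% and 0.878% of all features), and at an unadjusted p under 0.05 edgeR gave 13 and 1 (11.8% and 5.60% of all). In 12 of the 16, all 4 thione libraries lay above both DMSO libraries, as they did in 19.9% of all features. PIR3 (YKL163W, chrXI:144401-145378), a covalently bound wall protein, had 110 and 120 CPM with 10{3,3,1}, 105 and 135 CPM with 11, and 42.6 and 40.9 CPM in DMSO. The compounds overlapped each other and not DMSO, and PIR3 rose by 1.49 (SE 0.17, edgeR adjusted p = 0.00630). KDX1 (YKL161C), related to the kinase Slt2 of this pathway, had 64.7 and 76.9 CPM with 10{3,3,1}, 77.6 and 82.4 CPM with 11, and 41.3 and 42.8 CPM in DMSO. It rose by 0.84 (SE 0.15, edgeR adjusted p = 0.0382). The difference between the compounds was -0.06 for PIR3 (95% interval -0.47 to 0.36) and -0.18 for KDX1 (-0.54 to 0.19). SLT2 itself had 178 and 178 CPM with 10{3,3,1}, 211 and 209 CPM with 11, and 127 and 123 CPM in DMSO, and its log2 fold change of 0.63 did not pass (edgeR adjusted p = 0.107). Leaving out either DMSO replicate left 0 of the Rlm1 targets called by edgeR, PIR3 at an adjusted p of 0.103 to 0.146, and KDX1 was lost with any 1 of the 6 libraries left out (0.0706 to 0.538).

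In the cell wall mannoproteins of low oxygen, 2 of 6 tested genes rose in edgeR's test (0.790% of all features) and 0 fell. DESeq2 called 3 higher (2.84% of all features) and 0 lower, and at an unadjusted p under 0.05 edgeR also gave 3 (11.8% of all) and 0. TIR1 (YER011W) had 28.8 and 38.6 CPM with 10{3,3,1}, 14.2 and 19.3 CPM with 11, and 8.05 and 10.9 CPM in DMSO, a log2 fold change of 1.34 (SE 0.24, edgeR adjusted p = 0.0384). DAN1 (YJR150C) had 7.12 and 12.3 CPM with 10{3,3,1}, 1.93 and 3.97 CPM with 11, and 0.972 and 1.25 CPM in DMSO, a change of 2.28 (SE 0.40, edgeR adjusted p = 0.0384). Both genes were higher with 10{3,3,1} than with 11 in every library, but the difference passed for neither (1.01 with 95% interval 0.43 to 1.59 for TIR1, 1.72 with 0.86 to 2.59 for DAN1). The call of TIR1 was lost with any 1 of the 6 libraries left out (adjusted p 0.0737 to 0.580), and that of DAN1 without replicate 2 of either thione or without either DMSO replicate (0.113 to 0.541).

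Of 29 tested transporters and regulators of drug efflux 3 rose (0.790% of all features) and 0 fell in edgeR's test, and their median log2 fold change was 0.02. DESeq2 also called 3 higher (2.84% of all features) and 0 lower, and at an unadjusted p under 0.05 edgeR gave 5 (11.8% of all) and 0. Set against DMSO one compound at a time, AZR1 and YOR1 passed with 11 and not with 10{3,3,1}, and both differed between the compounds in the test given further on. TPO4 passed with 10{3,3,1} (edgeR adjusted p = 0.00856) and not with 11 (0.217). AZR1 (YGR224W, chrVII:942806-944647), a plasma membrane transporter tied to azole resistance, had 10 and 26 counts with 10{3,3,1}, 5976 and 7645 counts with 11, and 9 and 8 counts in DMSO. In CPM these are 0.838 and 1.79 with 10{3,3,1}, 428 and 552 with 11, and 0.486 and 0.625 in DMSO. The rise of both thiones together, 5.54 on the log2 scale (SE 0.36, edgeR adjusted p = 0.000190), is the mean of 1.30 for 10{3,3,1} (adjusted p = 0.268) and 9.79 for 11 (adjusted p = 9.70e-07). It therefore describes neither compound, and with the 4 thione libraries fitted as 1 group AZR1 did not pass (adjusted p = 0.157).

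YOR1 (YGR281W, chrVII:1052824-1057257), an ABC pump for oligomycin, had 168 and 150 CPM with 10{3,3,1}, 333 and 409 CPM with 11, and 142 and 151 CPM in DMSO. The 10{3,3,1} and DMSO libraries overlapped, and the joint log2 fold change of 0.73 (SE 0.13, edgeR adjusted p = 0.0384) was made of 0.12 for 10{3,3,1} and 1.34 for 11. TPO4 (YOR273C), a polyamine exporter, had 62.3 and 76.6 CPM with 10{3,3,1}, 37.4 and 49.9 CPM with 11, and 23.9 and 25.5 CPM in DMSO. It was above DMSO in all 4 thione libraries and rose by 1.16 (SE 0.17, edgeR adjusted p = 0.0210). PDR5 and SNQ2, the best known pumps under Pdr1, had log2 fold changes of 0.32 and -0.10 (edgeR adjusted p = 0.252 and 0.692). YOR1 was lost with any 1 of the 6 libraries left out (adjusted p 0.0661 to 0.655), and TPO4 without replicate 2 of either thione or without either DMSO replicate (0.0769 to 0.338).

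Copper and iron uptake genes gave 2 joint calls, each carried mainly by 10{3,3,1}. CTR1 (YPR124W, chrXVI:786208-787428), the high-affinity copper importer, had 70.9 and 81.2 CPM with 10{3,3,1}, 24.8 and 23.2 CPM with 11, and 23.5 and 25.9 CPM in DMSO. The 11 libraries overlapped DMSO, and the joint change of 0.79 (SE 0.14, edgeR adjusted p = 0.0383) was made of 1.62 for 10{3,3,1} and -0.04 for 11. ENB1 (YOL158C), a transporter of the siderophore enterobactin, had 37.6 and 41.4 CPM with 10{3,3,1}, 20.5 and 22.4 CPM with 11, and 18.7 and 17.3 CPM in DMSO. Its joint change was 0.69 (SE 0.12, edgeR adjusted p = 0.0384), and the difference between the compounds was 0.88 (95% interval 0.57 to 1.19, adjusted p = 0.0699). ENB1 did not pass with the 6 thione and DMSO libraries alone (adjusted p = 0.0561). Of 6 Mac1 targets 1 rose and of 30 genes of the iron regulon 1 rose (0.790% of all features), with no member of either list lower in edgeR's test. At an unadjusted p under 0.05 edgeR gave 4 higher and 0 lower of the Mac1 targets, and 8 and 1 of the iron genes (11.8% and 5.60% of all). DESeq2 called 2 Mac1 targets and 5 iron genes higher (2.84% of all) and 0 lower. Both joint calls were lost with any 1 of the 6 libraries left out (adjusted p 0.0737 to 0.580). The median log2 fold change of the iron list was 0.41 with 10{3,3,1} and -0.06 with 11, and of the zinc list 0.03 with 10{3,3,1} and 0.12 with 11.

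Among the other genes with the largest rises, RTS3 (YGR161C, chrVII:808629-809420), a putative part of a protein phosphatase complex, had 64.5 and 81.8 CPM with 10{3,3,1}, 48.0 and 85.6 CPM with 11, and 15.4 and 22.6 CPM in DMSO. RTS3 rose by 1.89 (SE 0.27, edgeR adjusted p = 0.0188). HXT2 (YMR011W), a hexose transporter, had 17.7 and 24.4 CPM with 10{3,3,1}, 13.0 and 15.8 CPM with 11, and 6.70 and 6.41 CPM in DMSO, a change of 1.41 (SE 0.21, edgeR adjusted p = 0.0210). MNC1 (YBR056W-A) had 21.5 and 24.5 CPM with 10{3,3,1}, 20.0 and 16.5 CPM with 11, and 9.02 and 6.09 CPM in DMSO, a change of 1.43 (SE 0.23, edgeR adjusted p = 0.0321). The thione libraries of all 3 genes stood above both DMSO libraries. ADH5, an alcohol dehydrogenase, rose by 1.37, ATG41, needed for autophagy, by 1.36, and ARG1, of arginine synthesis, by 0.99. RTS3 was lost without 10{3,3,1} replicate 2 or either DMSO replicate (adjusted p 0.0754 to 0.255), HXT2 without replicate 2 of either thione or either DMSO replicate (0.0755 to 0.283), ADH5 without either DMSO replicate (0.0828 to 0.174), and MNC1, ATG41 and ARG1 with any 1 of the 6 libraries left out (0.0737 to 0.391). With DESeq2 size factors ATG41 did not pass (adjusted p = 0.0536).

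The fallers were 8 genes of unlike roles. OPT1 (YJL212C, chrX:33850-36249), which imports glutathione and short peptides, had 3.18 and 3.79 CPM with 10{3,3,1}, 6.23 and 7.66 CPM with 11, and 17.5 and 15.7 CPM in DMSO. It fell by 1.75 on the log2 scale (SE 0.22, edgeR adjusted p = 0.00857), and the 3 groups did not overlap. FMP48 (YGR052W, chrVII:593596-594705), of a kinase-like mitochondrial protein, had 29.8 and 27.3 CPM with 10{3,3,1}, 41.9 and 35.3 CPM with 11, and 91.9 and 74.9 CPM in DMSO. FMP48 fell by 1.33 (SE 0.14, edgeR adjusted p = 0.00356, and 0.146 without DMSO replicate 1), and again no group overlapped another. OPT1 was lost without 10{3,3,1} replicate 2 or either DMSO replicate (adjusted p 0.0562 to 0.174).

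SAG1 (YJR004C), the agglutinin of alpha cells, had 71.8 and 46.3 CPM with 10{3,3,1}, 76.7 and 72.7 CPM with 11, and 140 and 138 CPM in DMSO, and fell by 1.06 (SE 0.16, edgeR adjusted p = 0.0210). The labels give no mating type. Of the 4 alpha-cell genes 1 fell in edgeR's test (0.140% of all features), 2 were lower by DESeq2 (0.878% of all) and 3 at an unadjusted p under 0.05 (5.60% of all). Their median log2 fold change was -0.80, and the summed level was 1335 and 1070 CPM with 10{3,3,1}, 1095 and 1063 CPM with 11, and 1844 and 1503 CPM in DMSO. The 6 genes of a cells summed to 30.4 to 34.3 CPM in the thione libraries and to 26.7 and 25.8 CPM in DMSO, and MFA1, MFA2 and AGA2 of that list were at 6 counts or fewer over all libraries. The part of cell type in the result was not tested. The call of SAG1 was lost without either 11 replicate or either DMSO replicate (adjusted p 0.0738 to 0.255).

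Of the remaining fallers, IZH4 (YOL101C), a membrane protein tied to zinc balance, had 50.3 and 41.3 CPM with 10{3,3,1}, 82.8 and 84.4 CPM with 11, and 136 and 118 CPM in DMSO, and fell by 1.04 (SE 0.18, edgeR adjusted p = 0.0384). ARO10, a decarboxylase of aromatic amino acid breakdown, fell by 0.94, and NCA3, a protein of the wall-associated SUN family, by 0.91. URA1, of pyrimidine synthesis, had 652 and 587 CPM with 10{3,3,1}, 606 and 580 CPM with 11, and 1133 and 999 CPM in DMSO, a fall of 0.81 (SE 0.13, edgeR adjusted p = 0.0299). MDH2, the cytosolic malate dehydrogenase, fell by 0.73. The compounds overlapped each other for URA1, where they differed by 0.06 (95% interval -0.28 to 0.41). IZH4, ARO10, URA1 and MDH2 were lost with any 1 of the 6 libraries left out, and NCA3 with any of them but 10{3,3,1} replicate 1 (adjusted p 0.0624 to 0.538 over these 5 genes).

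How far the compounds acted alike was judged from the difference between them. That contrast sets no DMSO level against the thiones, although the spread behind its test was estimated over all 8 libraries. With 1 pair of compounds compared at matched dose and time, 7 of 5696 features (0.123%) differed between 10{3,3,1} and 11 in edgeR's test adjusted over all features, 5 higher (0.0878%) and 2 lower (0.0351%) with 10{3,3,1}. Of the 53 genes that changed against DMSO, 34 met every term set for a shared change, 0.597% of the features tested, 29 of them higher (0.509%) and 5 lower than in DMSO. Those terms were no call for the difference, all 4 thione libraries beyond both DMSO libraries, and a 95% interval of the difference within 1 log2 unit of 0. That interval lay within 1 log2 unit in 87.8% of all tested features, so this last term alone is met by most genes. The limit is also wide, as the median absolute log2 fold change of the 53 was 1.04. For GIT1, INO1, GDE1, ARO5, YHR138C, FMP48 and NCA3, all among the 34, the interval lay within the limit but on one side of 0. For another 14 genes the interval reached past 1 log2 unit. In all 14 it lay on one side of 0, 11 higher and 3 lower with 10{3,3,1}, at an unadjusted p of 0.000111 to 0.0306, but the difference did not pass the adjusted test (lowest adjusted p = 0.0699). Of the 34, only GIT1, PIR3, CRG1, ADH5 and FMP48 passed against DMSO with 11 alone in edgeR's test (adjusted p 0.00240 to 0.0499). With 10{3,3,1} alone all of the 34 passed but YCL049C, MHO1, YLR179C and KDX1 (0.0518 to 0.0671). A missed threshold does not show that a compound had no effect.

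The 5 genes called in both comparisons were AZR1, YOR1, PHO89, PHO5 and CTR1. AZR1 had a log2 difference, 10{3,3,1} minus 11, of -8.50 (95% interval -9.21 to -7.78, edgeR adjusted p = 1.64e-06). YOR1 had one of -1.22 (-1.56 to -0.88, edgeR adjusted p = 0.0113). PHO89 was higher with 10{3,3,1} by 2.21 (1.78 to 2.64, edgeR adjusted p = 0.00176), PHO5 by 1.86 (1.41 to 2.31, edgeR adjusted p = 0.00499) and CTR1 by 1.66 (1.31 to 2.02, edgeR adjusted p = 0.00201). The remaining 2 of the 7, FRE1 and TIS11, did not pass for both thiones together against DMSO (edgeR adjusted p = 0.261 and 0.0826) and were named after their values were seen. With 10{3,3,1} alone both rose against DMSO, FRE1 by 1.12 (edgeR adjusted p = 0.00910) and TIS11 by 2.56 (edgeR adjusted p = 0.00480). FRE1, a surface reductase for iron and copper, had 49.5 and 49.2 CPM with 10{3,3,1}, 17.5 and 15.0 CPM with 11, and 24.1 and 21.2 CPM in DMSO. TIS11, which marks mRNAs for decay when iron is short, had 9.80 and 14.8 CPM with 10{3,3,1}, 1.50 and 2.53 CPM with 11, and 1.84 and 2.42 CPM in DMSO. Both were thus above both 11 and DMSO in the 10{3,3,1} libraries.

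AZR1 and PHO89 remained called for the difference whichever single library was left out. PHO5 was lost without 10{3,3,1} replicate 1 or 2 or 11 replicate 2 (adjusted p 0.0520 to 0.0580), and CTR1 and FRE1 without 11 replicate 2 (0.0520). TIS11 was lost without 10{3,3,1} replicate 2 or 11 replicate 1 (0.0557 and 0.100), and YOR1 without 10{3,3,1} replicate 1 or 2 or 11 replicate 2 (0.102 to 0.255).

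**Figure D3:**
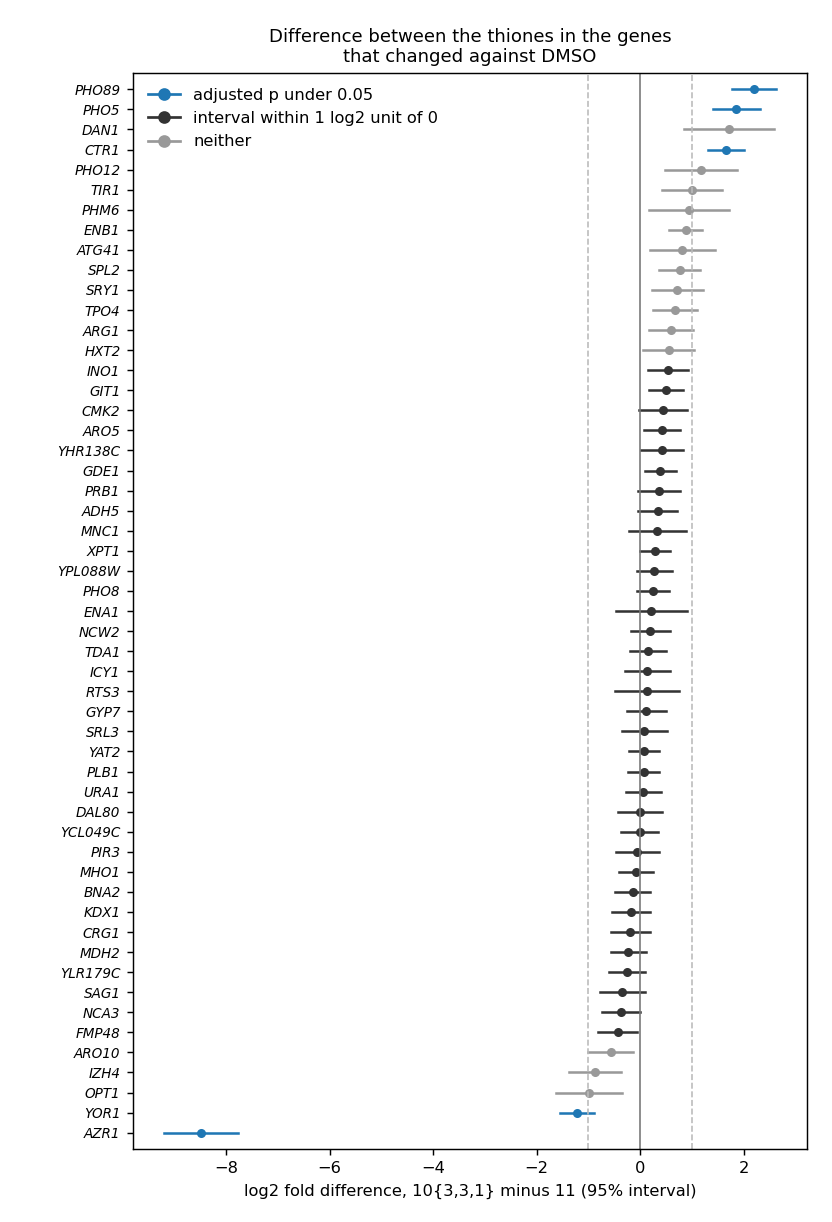
Difference in RNA level between the compounds (log2 fold difference, 10{3,3,1} minus 11, with its 95% interval). The 53 genes shown were called against DMSO in the joint contrast, which weighs both thiones equally. A call there does not show a change with each compound. Blue marks the 5 genes that differ, black the 34 whose interval lies within 1 log2 unit of 0 and grey the other 14, with AZR1 far to the left at -8.50.

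Among the genes of the shared change, several outside the naming rule are given because they handle membrane lipids or vacuolar turnover, and were chosen after their values were seen. INO1 (YJL153C), the first enzyme of inositol synthesis, had 3560 and 3239 CPM with 10{3,3,1}, 2469 and 2223 CPM with 11, and 1157 and 1203 CPM in DMSO, a log2 fold change of 1.26 (SE 0.16, edgeR adjusted p = 0.00857). GDE1 (YPL110C), which splits glycerophosphocholine, had 137 and 121 CPM with 10{3,3,1}, 99.1 and 98.0 CPM with 11, and 66.6 and 68.2 CPM in DMSO, a change of 0.74 (SE 0.12, edgeR adjusted p = 0.0314). PLB1, a phospholipase B, rose by 0.63, and PRB1, the vacuolar protease B, by 0.85. The thione libraries of these genes lay above both DMSO libraries. INO1 was lost without either DMSO replicate (adjusted p 0.174 to 0.233), and GDE1, PLB1 and PRB1 with any 1 of the 6 libraries left out (0.0738 to 0.753). PLB1 and PRB1 were also lost with DESeq2 size factors (adjusted p 0.0536).

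Genes of growth and of protein quality gave no calls in edgeR's test. Of 50 ribosome biogenesis genes 0 passed, although all 50 had a negative log2 fold change, with a median of -0.36 for both thiones, -0.36 with 10{3,3,1} and -0.37 with 11. In 41 of the 50 the 4 thione libraries lay below both DMSO libraries (15.5% of all features), 20 were lower at an unadjusted p under 0.05 (5.60% of all), and DESeq2 called 0 of them. Calls in edgeR's test were also 0 among 20 ribosomal protein genes (median -0.15), 35 respiratory chain genes (-0.06), 27 ergosterol genes (-0.16), 32 proteasome genes (0.24), 21 heat shock genes (0.30), 16 genes of the unfolded protein response (0.29) and 22 Yap1 targets of oxidative stress (0.28). DESeq2 called 4 ergosterol genes lower (0.878% of all features), and 4 heat shock genes, 2 unfolded protein genes and 1 Yap1 target higher (2.84% of all). It called 0 in the ribosomal protein, respiratory and proteasome lists. At an unadjusted p under 0.05 edgeR gave 11.8% of all features higher and 5.60% lower. In these lists it gave 1 ergosterol gene higher and 11 lower, 7 proteasome genes, 7 heat shock genes, 5 unfolded protein genes and 4 Yap1 targets higher, 2 respiratory genes higher and 1 lower, and 0 ribosomal protein genes. Of 24 general stress genes 1 rose in edgeR's test (0.790% of all features), with a median of 0.42. DESeq2 called 2 of them higher and 1 lower (2.84% and 0.878% of all), and at an unadjusted p under 0.05 edgeR gave 6 and 2 (11.8% and 5.60% of all). Of 45 Gcn4 targets of amino acid synthesis 1 rose in edgeR's test (0.790% of all features), with a median of 0.20, while DESeq2 called 8 higher and 0 lower (2.84% and 0.878% of all features), and at an unadjusted p under 0.05 edgeR gave 14 and 1 (11.8% and 5.60% of all).

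**Figure D4:**
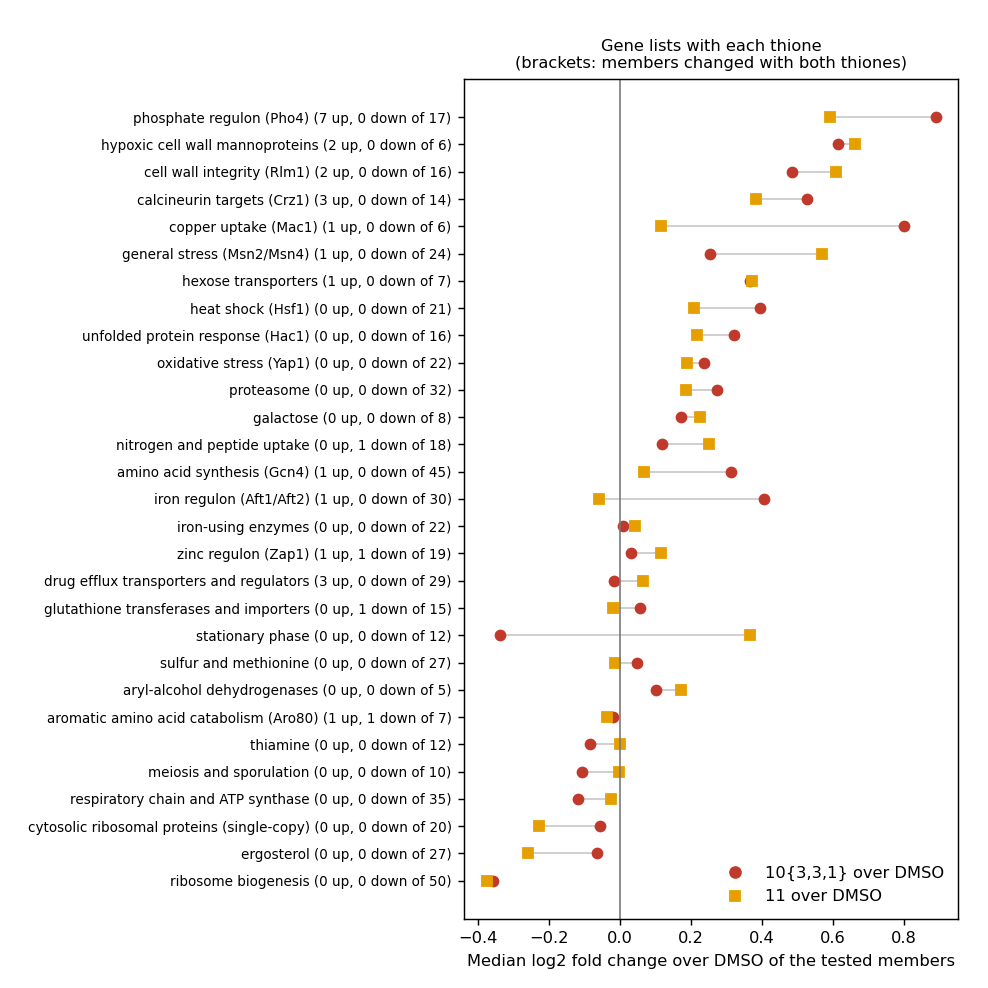
Median log2 fold change over DMSO of the tested members of each gene list with at least 5 of them. Circles are for 10{3,3,1} and squares for 11. Members that passed against DMSO in the joint contrast, which need not have passed with each compound, are in brackets. The phosphate regulon lies at 0.89 with 10{3,3,1}, the highest median for that compound, and at 0.59 with 11, for which the low-oxygen mannoproteins (0.66) and Rlm1 targets (0.61) lie higher. Ribosome biogenesis lies lowest, at -0.36 and -0.37, and both compounds are measured against the same DMSO libraries.

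CQ was given at a lower dose, so its levels are set beside those of the thiones without a comparison. In the CQ libraries AZR1 had 1.67 and 2.41 CPM, PHO89 117 and 104 CPM, PHO5 28.3 and 28.8 CPM and GIT1 17.8 and 14.6 CPM. ENB1 had 695 and 709 CPM there, CTR1 35.8 and 39.8 CPM, FMP48 8.03 and 8.92 CPM and OPT1 17.5 and 11.5 CPM.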

How the data were processed

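RNA was measured in 8 libraries, 2 in each of 4 groups. Per the labels' protocols, total RNA was taken with hot acid phenol and sequenced from PrepX RNA-Seq kit libraries. The authors deposited raw read counts per feature, 1 column per library. TopHat, TopHat2 2.1.1, HTSeq, DESeq and sacCer3 are named in the submitters' processing notes. The sources used here do not state the strand setting, so overlapping and antisense reads may not be separable. The authors also deposited a normalized signal, counts divided by 1 size factor per library, which was not tested. Names and coordinates came from RefSeq R64 and cover 6045 of 7122 features.

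Counts were tested with edgeR 4.0.16 (R 4.3.3), quasi-likelihood, two-sided, with TMM scaling, filterByExpr and 1 term per group over all 8 libraries, which left 5696 features. The joint contrast weighs both thiones equally. Folds are log2, SE is the log2 fold change over the root of its F value, and Benjamini-Hochberg adjustment ran over all tested features, with a threshold of 0.05. CPM are TMM-scaled. The common biological coefficient of variation was 0.153. A gene with 0 counts may have had up to 3, which covers counting error only. Replicates were compared first, and the chi-square per degree of freedom of 22.8 to 102.8 between replicates was far above sampling noise. On simulated data for thiones against DMSO over 5669 features, 89% of 2-fold and 100% of 4-fold changes were recovered. These rates hold for the simulated spread and do not measure what the real libraries could detect.

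Named genes are up to 12 risers and 12 fallers at an average log2 CPM of 3 or more, with all 4 thione libraries beyond both DMSO libraries, genes called in both comparisons, up to 3 called members per list, and all called phosphate, Mac1 and drug efflux genes. The members, rules and 32 gene lists were chosen with earlier results of these data known. Alternatives were DESeq2 size factors, no filter, the DESeq2 1.42.0 test, the 6 thione and DMSO libraries alone, the thiones as 1 group, a replicate block and leaving out each library.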

Additional observations from a re-analysis of the deposited data

Results flagged for a closer look

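Differences between the compounds passed the test for 7 genes. The log2 difference, 10{3,3,1} minus 11, was -8.50 for AZR1, -1.22 for YOR1, 2.21 for PHO89, 1.86 for PHO5, 1.66 for CTR1, 1.60 for FRE1 and 2.61 for TIS11. All are from edgeR's quasi-likelihood test adjusted over all features. The spread in that test was estimated over all 8 libraries.

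Among the 4 thione libraries of the genes that changed against DMSO, 3 genes had 1 library that stood apart from the other 3. YAT2 (a carnitine acetyltransferase) was at 241 CPM in 10{3,3,1} replicate 1, MHO1 was at 84.9 CPM in 10{3,3,1} replicate 1, and SAG1 was at 46.3 CPM in 10{3,3,1} replicate 2. For YAT2 and MHO1 the other 3 thione libraries lay within 212 to 215 CPM and 94.6 to 95.2 CPM. Chance gives about 1 such library in 20 groups of like libraries. All 53 genes that changed were screened, and the 4 libraries of each gene come from both compounds.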

How the results depend on the processing

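The log2 fold changes of the named genes kept their direction under every alternative run, and no result reversed. Counts moved more. Against 45 features higher and 8 lower with the thiones than in DMSO, 7 that differed between the compounds, 34 changed alike and 5 called in both comparisons, the DESeq2 test gave 162, 50, 27, 166 and 13. The 6 thione and DMSO libraries alone gave 17 lower and 58 alike, and no filter on low counts gave 12 lower. With single libraries left out, the ranges were 4 to 65 higher, 0 to 17 lower (0 by edgeR, without DMSO replicate 1), 3 to 10 that differed between the compounds, 1 to 58 alike and 2 to 7 in both. The low ends came from fits without a DMSO or a thione library and the high ends from fits without a CQ library. With the 4 thione libraries as 1 group, 38 rose and 11 fell, and 20 of the 53 calls were lost, at adjusted p from 0.0523 to 0.246. The cause of these shifts was not tested.

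Labels do not say that a replicate number marks a shared batch. With the replicate number as a block, 177 rose, 49 fell, 13 differed between the compounds, 178 changed alike and 9 were in both, and all 53 calls were kept. Of the 50 ribosome biogenesis genes, 4 were called lower with the block, against 0 by edgeR without it. Deviations from the group means of same-numbered libraries had a correlation of 0.320 between 10{3,3,1} and 11, 0.388 between 10{3,3,1} and DMSO and 0.415 between 11 and DMSO. With CQ it was 0.209 for 10{3,3,1}, -0.0977 for 11 and -0.150 for DMSO, and there are only 2 numbers. A single pair of DMSO libraries sets the level of every comparison with the solvent, and 3 counts, 0.158 to 0.248 CPM, limit what could be seen of rare RNAs.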
